A study of Homo sapiens with 6 samples.

Results

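The stress regulators ATF4 and CHOP, with paralogues and stress-regulatory targets of ATF4, were examined in BT549 cells, a human triple-negative breast cancer line. They are 10 genes listed by symbol, ATF3, ATF4, ATF5, DDIT3, DDIT4, TRIB3, CHAC1, SESN2, NUPR1 and PPP1R15A, and all 10 were found among the 19792 genes of the deposited table. A tetracycline-inducible vector with puromycin resistance brought the WDR5 shRNA into the cells, so that all 6 libraries come from shRNA-bearing cells. The vehicle group had 3 cultures with 0.1% DMSO and the other group 3 cultures with 500 ng/ml doxycycline (DOX), for a week by the study's account. Since both groups carry the same construct and no library comes from DOX-treated cells with a control shRNA, an effect of DOX cannot be told apart from silencing of WDR5. The table gives 1 level per gene, the mean normalized count that the authors averaged over the 6 libraries of both groups. The levels below therefore belong to neither group alone, and DOX was not compared with vehicle here. The columns of the authors' own comparison in the same table were not used.

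ATF4 is the transcription factor of the integrated stress response. Kinases that sense endoplasmic reticulum (ER) stress, amino acid shortage, heme shortage or double-stranded RNA phosphorylate the initiation factor eIF2, which lowers general protein synthesis while translation of the ATF4 mRNA rises. ATF4 then activates genes of amino acid supply and redox balance together with further regulators, among them DDIT3, which encodes the pro-apoptotic factor CHOP. ATF4 is controlled to a large extent at translation, so that an mRNA level is not a measure of the protein.

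ATF4 binds with C/EBP family partners to a composite element with the core TGATGNAA. The 40-base and shorter windows below are shown because they hold the few matches to response elements near the start sites of these genes. RefSeq promoter windows of 300 bases (250 before to 50 after the start site, GRCh38.p14) were found by symbol for 9 of the 10 genes, all but NUPR1. Each sequence is read 5′ to 3′ on the strand of the gene, and the capitals mark the match.
CHAC1, chr15:40953246-40953285, plus strand: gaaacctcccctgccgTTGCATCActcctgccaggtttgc
ATF3, chr1:212565200-212565239, plus strand: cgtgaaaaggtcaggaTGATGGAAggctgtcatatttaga
PPP1R15A, chr19:48872347-48872386, plus strand: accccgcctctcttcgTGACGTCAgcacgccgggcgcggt
DDIT3, chr12:57520733-57520767, minus strand: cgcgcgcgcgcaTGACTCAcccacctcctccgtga
ATF5, chr19:49928702-49928740, plus strand: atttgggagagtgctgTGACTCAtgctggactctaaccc

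The TGATGNAA core was searched on both strands and was found for 2 of the 9 genes, CHAC1 and ATF3. In CHAC1 it lies on the other strand, as TGATGCAA, and its match starts 209 bases before the start site. In ATF3 it reads TGATGGAA and starts 191 bases before the upstream start site. Among all 13481 genes of the table with such windows, 3.26% held the core. The cyclic AMP response element TGACGTCA was found for 1 of the 9 genes, PPP1R15A, 58 bases before the start site, and for 3.26% of all genes. The AP-1 site, TGAGTCA on one strand and TGACTCA on the other, was found for DDIT3 and ATF5 and for 5.37% of all genes. The ER stress response element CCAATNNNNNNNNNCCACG was found for none of the 9 genes and for 0.148% of all genes. These matches describe letters in the windows only. The GC content of the windows ran from 47.2% for ATF3, averaged over 2 start sites, to 76.0% for TRIB3, averaged over 3, with a median of 63.7% over all genes.

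The 6 lowest steps of the table are what 1 read in 1 library adds to a mean over 6, and all 3195 values under 1 were whole sums of these steps. They give size factors from 0.737 to 1.34, so the deepest library was 1.82 times as deep as the shallowest, but which library belongs to which culture is not shown. The mean normalized counts sum to 26551206. Counting intervals (95%) below use the largest step and cover counting error only, so the spread between cultures is not in them. WDR5, the target of the shRNA, had a mean normalized count of 1143, and its silencing cannot be read from a mean over both groups. Of the markers of the line, the mesenchymal genes VIM, CDH2, FN1, ZEB1, SPARC and CD44 ran from 4093 to 48038, whereas ESR1 and PGR, the hormone receptors that triple-negative cells lack, were at 0.790 and 0.801. The epithelial genes CDH1, EPCAM, KRT8, KRT18 and KRT19 ran from 1.30 to 435. Unlike ESR1 and PGR, the receptor gene ERBB2 was at 1221, higher than 75.7% of all genes of the table. Of the blood, vessel and liver markers, PTPRC was at 44.7, PECAM1 and ALB were lower, and CD3E had no row to analyse.

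All 10 stress regulators were expressed. Their mean normalized counts ran from 368 for CHAC1 to 18377 for DDIT4, a 49.9-fold range, with a median of 2483. Of the 10 genes, 9 had a mean normalized count above 1000. ATF5, the lowest of these 9, was higher than 74.7% of all genes of the table. Of the 10 genes, 3 (DDIT4, ATF4 and PPP1R15A) were higher than 90% of all genes of the table. PPP1R15A was higher than 88.1% of protein-coding genes and 86.2% of genes at a mean of 10 or more normalized counts. DDIT4 and ATF4 stayed above 90% in both sets. Together the 10 genes held 0.175% of all normalized counts, and DDIT4 and ATF4 held 65.0% of that part.

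**Figure D1:**
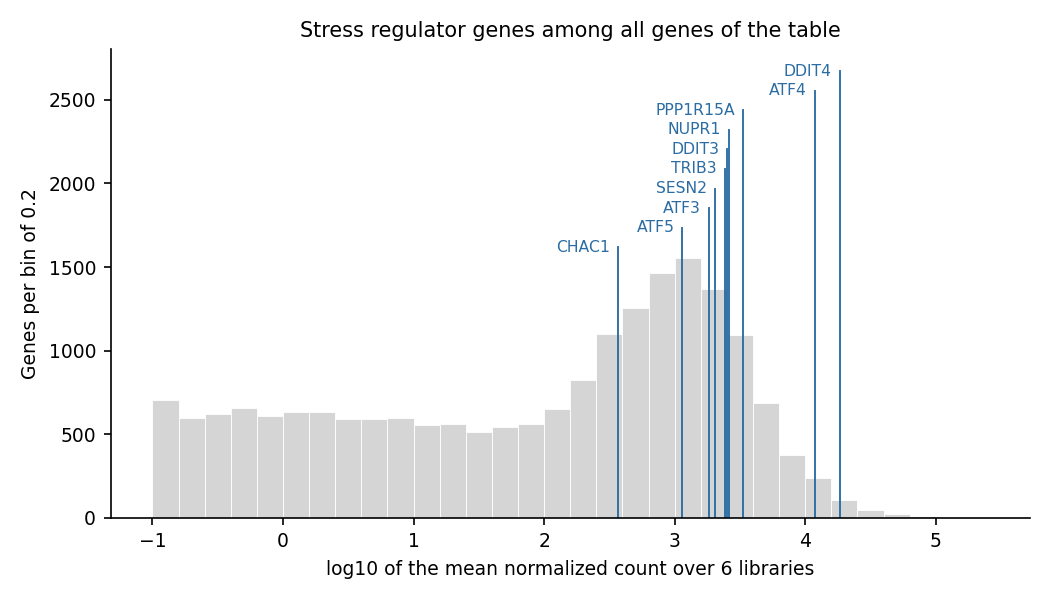
Number of genes (vertical axis) by log10 of the mean normalized count over 6 libraries (horizontal axis), as grey bars of width 0.2, with a blue line at each of the 10 stress regulators. CHAC1 lies lowest at a mean normalized count of 368, and DDIT4 lies highest at 18377.

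Among the transcription factors, ATF4 stood far above the others. ATF4, on chromosome 22 of GRCh38 from 39519695 to 39522683 (GENCODE 44), had a mean normalized count of 11808 (counting interval 11706 to 11909), which ranked 325 among all genes. DDIT3, on chromosome 12 from 57516588 to 57521737, had a mean normalized count of 2533 (counting interval 2486 to 2580). ATF3, a stress-induced factor of the same basic leucine zipper class, lies on chromosome 1 from 212565334 to 212620777 and had a mean normalized count of 1826 (1786 to 1866). ATF5, the closest relative of ATF4 among the 10 genes and a regulator of the mitochondrial stress response, lies on chromosome 19 from 49928702 to 49933935 and was the lowest of the 4 factors at 1145 (1113 to 1176). The order of the 4 factors by mean normalized count was thus ATF4, DDIT3, ATF3 and ATF5, and no counting intervals overlapped. For DDIT3, 31.6% of the exon bases lie opposite to exons of MARS1 and MBD6, and for ATF5, 19.5% lie opposite to exons of IL4I1 and NUP62. Whether the authors' counting used strand is not given in the sources used here, so reads of these genes and of their opposite partners may not be told apart. On the same strand, 8.03% of the exon bases of DDIT3 lie in exons of another gene. For ATF5, 2.56% lie in MIR4751 on the same strand. Use of strand would not separate reads in these overlaps.

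PPP1R15A and TRIB3 act back on the pathway. PPP1R15A, also known as GADD34, recruits the phosphatase that removes phosphate from eIF2, and lies on chromosome 19 from 48872212 to 48876059. Its mean normalized count was 3337 (counting interval 3283 to 3391), below those of DDIT4 and ATF4 only. TRIB3, a pseudokinase that binds ATF4 and CHOP and restrains AKT, lies on chromosome 20 from 362835 to 397559. Its mean normalized count of 2433 (2387 to 2479) lay just under that of DDIT3, and their counting intervals did not overlap.

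The effectors held both ends of the range. DDIT4, also known as REDD1, and SESN2 both restrain the growth kinase mTORC1. DDIT4, on chromosome 10 from 72273919 to 72276036, had a mean normalized count of 18377 (counting interval 18251 to 18503) and ranked 153 among all genes. SESN2, on chromosome 1 from 28259518 to 28282491, had a mean normalized count of 2022 (1980 to 2064). NUPR1, a small chromatin-associated stress protein, lies on chromosome 16 from 28532708 to 28539008 and had a mean normalized count of 2607 (2560 to 2655). CHAC1, an enzyme that degrades glutathione, lies on chromosome 15 from 40952962 to 40956512 and was lowest at 368 (350 to 386). With 3 libraries in each group, the pooled level is the midpoint of the group means, so the mean of either group for CHAC1 is at most 737. In these bulk samples a smaller share of cells with a transcript and less RNA per cell cannot be told apart.

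Since a longer transcript gives more reads, levels were compared between genes per kb of transcript. With the canonical transcript of GENCODE 44, DDIT4 was highest at 10537 normalized counts per kb, and ATF4 followed at 8321 per kb, 1.27-fold lower. DDIT3 came next at 2805 per kb, a level that lies 2.97-fold under that of ATF4. PPP1R15A was at 1420 per kb, TRIB3 at 1033 and ATF3 at 941. SESN2 at 584 per kb and ATF5 at 570 were the only neighbours in the order whose counting intervals overlapped. NUPR1 at 493 per kb and CHAC1 at 242 closed the order. The median of the 10 genes was 987 per kb, against 209 per kb for the 13019 expressed genes, and all 10 genes were above that median. Expressed genes are here those with a gene model and a mean of 10 or more normalized counts. No test was made, since each gene has 1 pooled value.

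The order of the genes in the middle depended on which transcript length was taken. DDIT4 was first, ATF4 second and CHAC1 last with all 4 choices of length. NUPR1 moved most. Its canonical transcript of 5291 bases put it ninth, whereas the median length over its 3 transcripts put it next after ATF4 at 4360 per kb. ATF3, with 10 transcripts, ran from 457 to 2247 per kb. SESN2, with 1 transcript, stayed at 584 per kb. For NUPR1, 16.5% of the exon bases also lie in exons of another gene on the same strand, so its reads may be split.

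**Figure D2:**
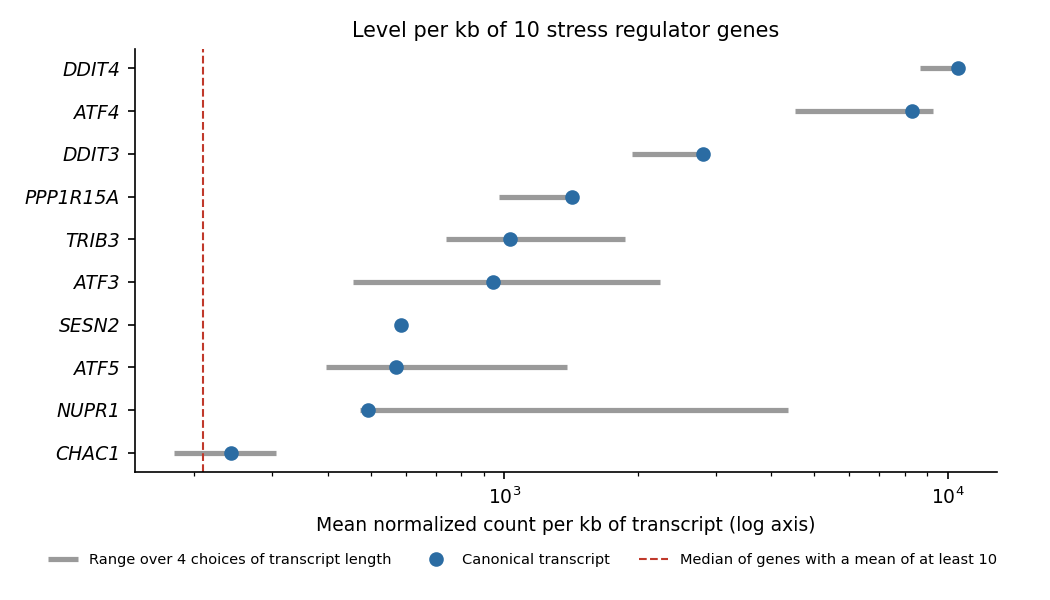
Mean normalized count per kb of transcript (horizontal, log axis) for the 10 genes, with the canonical transcript as a blue point, the range over 4 choices of transcript length as a grey bar, and the median of all expressed genes (canonical length) as a red dashed line. DDIT4 and ATF4 lie apart on the right, and the bar of NUPR1 spans from 473 to 4360. CHAC1 lies next to the line, and its bar reaches left of it at 180, the value with the union of all exons. With that length the median of the expressed genes was 129 per kb, and CHAC1 was above it.

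Most of the 10 genes have a close relative. For ATF4 the relative is ATF5, itself 1 of the 10 genes. In each other pair with both levels listed, the stress regulator was the higher gene per kb of canonical transcript. DDIT4L, the relative of DDIT4, was at 58.7 per kb, so that DDIT4 was 179-fold higher, or 58.7-fold with the choice of length that gave the smallest ratio. JDP2, a repressor related to ATF3, was at 29.3 per kb, and ATF3 was 32.1-fold higher, or 18.1-fold with the smallest ratio. ATF4 was 14.6-fold higher than ATF5, or 6.70-fold with the smallest ratio. SESN2 was 10.5-fold above SESN1 and 9.03-fold above SESN3 with canonical lengths, but 1.71-fold and 1.05-fold with the choice of length that was least favourable to SESN2. TRIB3 was 7.31-fold above TRIB2 and 1.56-fold above TRIB1, and the latter ratio fell to 1.07 under another choice of length. CHAC1 was 2.21-fold above CHAC2, the constitutive enzyme of the pair. PPP1R15A was 2.18-fold above PPP1R15B, the constitutive phosphatase subunit, although PPP1R15B had the higher mean normalized count (3427 against 3337) from a longer transcript. NUPR2 had no row to analyse.

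**Figure D3:**
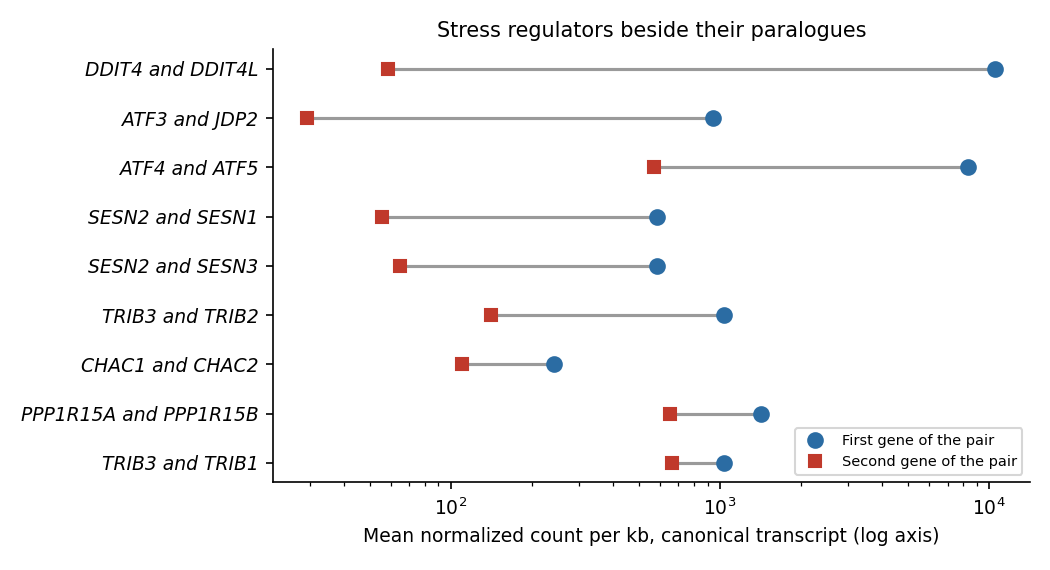
Mean normalized count per kb of canonical transcript (horizontal, log axis) for pairs of a stress regulator (blue circles) and a relative (red squares), joined by a line. ATF5, shown as the relative of ATF4, is itself a stress regulator. The widest gap is that of DDIT4 and DDIT4L (10537 against 58.7 per kb), and the narrowest that of TRIB3 and TRIB1 (1033 against 663 per kb).

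A compact gene structure was shared by most of the 10 genes. Their gene spans ran from 2.118 kb for DDIT4 to 55.444 kb for ATF3, with a median of 5.192 kb against 33.554 kb for the 13019 expressed genes. Of the 10 genes, 8 had a span under that median, and the exceptions were TRIB3 (34.725 kb) and ATF3. The canonical transcript had 3 exons in 6 of the genes (DDIT4, ATF4, PPP1R15A, ATF5, NUPR1 and CHAC1), 4 exons in 3 (DDIT3, TRIB3 and ATF3) and 10 exons in SESN2, against a median of 9 exons over all these genes. The transcripts were also short, from 903 bases for DDIT3 to 5291 bases for NUPR1, with a median of 1.97 kb against 3.31 kb. SESN2 and NUPR1 were the 2 genes with a transcript longer than that median. These sizes come from the annotation and describe the listed genes, with no test.

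**Figure D4:**
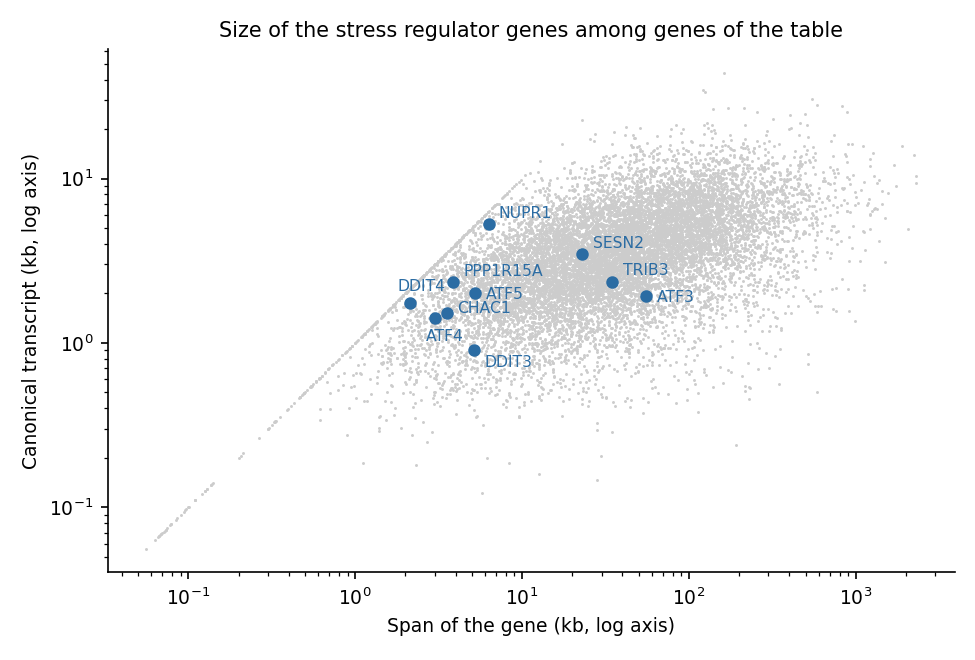
Length of the canonical transcript (vertical, log axis, kb) against the span of the gene (horizontal, log axis, kb) for the 13019 expressed genes (grey points) and the 10 stress regulators (blue points). ATF3, TRIB3 and SESN2 lie to the right with spans of 22.974 to 55.444 kb, and the other 7 genes have spans of 2.118 to 6.301 kb.

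The other genes of the pathway were taken from 7 lists of 100 genes in all, of which 95 were found in the table, 9 of them under an older symbol. Upstream of ATF4, all 16 genes for the eIF2 kinases, eIF2, its exchange factor eIF2B and its phosphatases were expressed, with a median of 643 per kb. EIF2S2, a subunit of eIF2, was highest at 4756 per kb, and EIF2AK3, the kinase PERK that senses ER stress, was lowest at 84.6 per kb. The other eIF2 kinases were at 1342 per kb for EIF2AK1 (HRI, the heme sensor), 634 for EIF2AK2 (PKR, the sensor of double-stranded RNA) and 385 for EIF2AK4 (GCN2, the amino acid sensor). Thus the 4 kinases differed 15.9-fold in level.

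The bZIP partners of ATF4 and CHOP had a median of 1321 per kb over 15 genes with canonical transcripts, against 987 for the 10 stress regulators. With the longest transcripts this order turned, at 915 against 947 per kb. CEBPD was highest at 2807 per kb, and JDP2 was lowest at 29.3 per kb with canonical transcripts, whereas BATF3 was lowest with the longest transcripts (22.3 against 29.2 per kb for JDP2). CEBPB and CEBPG, both partners of ATF4, were at 2052 and 1321 per kb. The list of other ATF and CREB family genes held 11 genes. They had a lower median of 354 per kb, from CREB3L2 at 82.3 to CREB3 at 1176, so that ATF4 was above each of the 11 listed. Of 13 other sensors and effectors of ER stress, with a median of 500.4 per kb, ERN1, the sensor IRE1, was lowest at 37.1 per kb. The ER chaperones HSP90B1 and HSPA5 were the 2 highest, at 23711 and 14612 per kb with canonical transcripts, and in the opposite order, at 9981 and 10606 per kb, with the longest transcripts. TNFRSF10B, the death receptor that CHOP activates, was at 922 per kb.

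Downstream of ATF4, the tRNA synthetases were the highest list. Of 12 such genes, 9 were matched, and all 9 were above the median of the expressed genes, with a median of 3689 per kb. WARS1, listed as WARS, was highest at 10668 per kb and CARS1, listed as CARS, was lowest at 814 per kb, whereas GARS1, MARS1 and SARS1 were not matched to 1 row. The 16 genes of amino acid synthesis and transport had a median of 1367 per kb, and 13 of them were above the median of the expressed genes. SLC38A2, a glutamine transporter, was highest at 6359 per kb, and CBS, an enzyme of transsulfuration, was lowest at 5.02 per kb. Of the 17 genes listed as stress signalling targets, 15 were found, with a median of 176 per kb. Over the 14 with a mean of 10 or more normalized counts the median was 419 per kb. EIF4EBP1, a repressor of translation initiation, was highest at 5792 per kb, and FGF21, a secreted stress hormone, was lowest at 3.86 per kb with a mean normalized count of 5.20. GDF15, another secreted stress factor, was at 4879 per kb, and GADD45G and NUPR2 were not found. This list also holds relatives of the stress regulators, namely TRIB1, TRIB2, SESN1, SESN3, DDIT4L, CHAC2 and NUPR2. Whether ATF4 acts on these relatives was not tested. SESN1, DDIT4L, SESN3, CHAC2 and TRIB2, at 55.4 to 141 per kb, were below the list median, and TRIB1 at 663 per kb was above it. The list median is thus in part that of relatives.

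**Figure D5:**
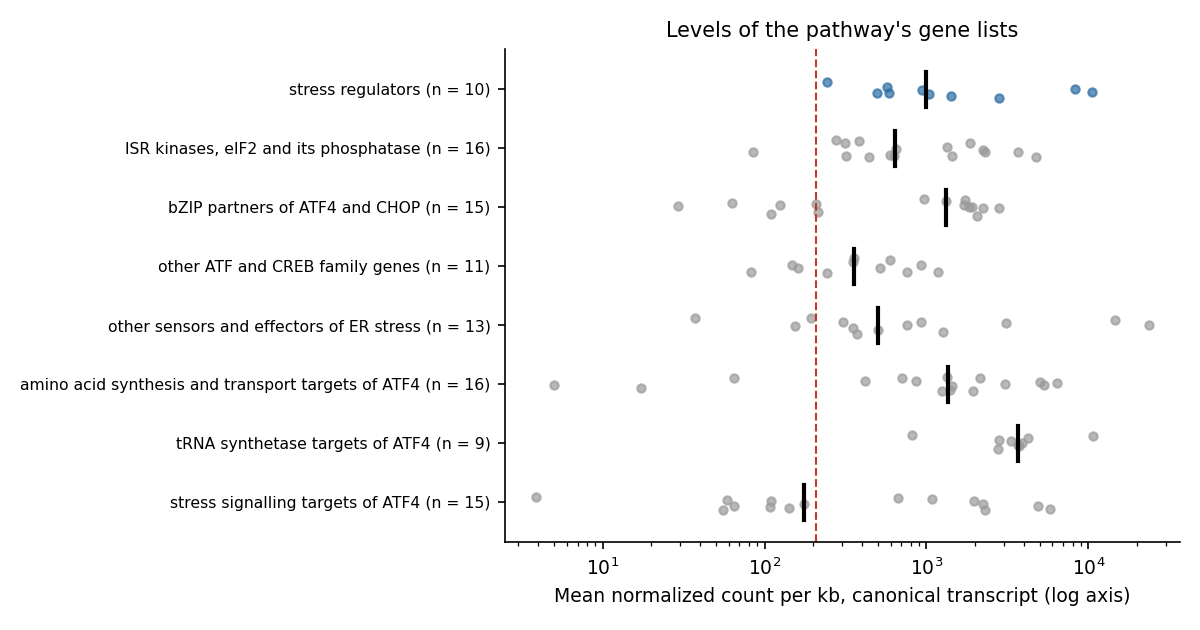
Mean normalized count per kb of canonical transcript (horizontal, log axis) for the 10 stress regulators (blue points) and the genes of 7 pathway lists (grey points), with the median of each list as a black bar and the median of all expressed genes as a red dashed line. The tRNA synthetases have the highest median (3689 per kb). The stress signalling targets have a median left of the line at 176 per kb with FGF21 included, and right of it at 419 per kb with genes under 10 normalized counts left out. That list includes relatives of the stress regulators, of which SESN1, DDIT4L, SESN3, CHAC2 and TRIB2 lie left of the line and TRIB1 right of it.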

How the data were processed

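Total RNA from 3 vehicle-treated and 3 DOX-treated cultures of BT549/tet-WDR5shRNA cells was sequenced from stranded poly(A) libraries. Per the paper's methods and the submitters' processing notes, the authors aligned reads to GRCh38 with STAR and normalized gene counts with DESeq2. The paper adds a suffix to the name of the genome that may stand for an annotation release, and the counter and any filter on low counts are not given in the sources used here. In the deposited table each gene has 1 signal value, the mean normalized count, for which the authors divided counts by size factors and averaged over all 6 libraries. The deposited table also holds 5 columns of the authors' own comparison (log2 fold change, its standard error, Wald statistic, p-value and adjusted p-value), and these were not used. The planned comparison of DOX with vehicle needs values of single libraries, and none was analysed here, so no test was made.

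The members and lists were chosen with earlier results of these data known. GENCODE 44 (GRCh38) gave transcript lengths, exons and positions. Among 19792 symbols, 17729 matched directly, 582 through a RefSeq synonym of 1 gene only and 1481 did not match. Levels per kb used the canonical transcript, or the longest where none is marked. Percentiles are shares of genes with a lower mean normalized count. Counting intervals (95%) are the value plus and minus 1.96 times the square root of the value times 0.226, the largest step of 1 read. Steps were accepted as whole sums within 1e-09. Promoter windows and their motifs came from RefSeq (GRCh38.p14), and the 16 windows of the 9 matched genes were checked to lie on the strand of a GENCODE transcript. Amino acid sequences were not analysed here. The genes named were the 10 members, WDR5, the highest and lowest gene of each list, the unmatched genes and the cell type markers. Relatives of the members, EIF2AK1, EIF2AK2, EIF2AK4, CEBPB, CEBPG, BATF3, HSPA5, TNFRSF10B and GDF15 were named after their values were seen. The same holds for ASNS, ASNSP1, PSAT1, SLC3A2, PHGDH, PYCR1, SLC7A11, CTH and CBSL. The recovery of size factors and the motif search were tested on simulated data. Computation used Python 3.11.15 with numpy 2.4.6, pandas 2.3.3, scipy 1.17.1 and matplotlib 3.10.9.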

Additional observations from a re-analysis of the deposited data

How the results depend on the processing

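The median percentile of the 10 genes, 86.8 among all genes of the table, was 80.7 among genes at a mean of 10 or more normalized counts, 84.3 among those at 1 or more and 83.4 among protein-coding genes. The median level per kb of the 10 genes, 987 with canonical transcripts, was 947 with the longest transcript, 2058 with the median transcript length and 662 with the union of all exons. All 10 genes were above the median of the expressed genes with 3 of these lengths and 9 with the median transcript length. The exception was CHAC1, at 306 per kb against a median of 496 per kb with that length. With the longest transcript, the list medians per kb were 915 for the bZIP partners (under the 947 of the 10 genes, against the order with canonical transcripts), 1038 for amino acid synthesis and transport, 2808 for the tRNA synthetases and 141 for the stress signalling targets. Without genes under 10, the last list had a median of 419 per kb, above the median of the expressed genes and that of the other listed ATF and CREB genes (354) in place of below both. Relatives of the 10 genes are part of this list with each setting. With TGATGCAA in place of TGATGNAA, 1 gene (CHAC1) kept a match, and restriction to the bases before the start site left both. No paired analysis was possible because the table gives 1 value per gene over all libraries. For the same reason edgeR and DESeq2 fits, other filters on counts and leaving out a replicate were not run. Depth limits the levels little, since the counting interval of CHAC1, the lowest of the 10 genes, ran from 350 to 386, whereas the spread between cultures is unknown.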

Other observations

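ASNS, the asparagine synthetase that is a textbook target of ATF4, had a mean normalized count of 40.9, or 17.1 per kb, and was singled out after its value was seen. In the same list, PSAT1 was at 5319 per kb, SLC3A2 at 5055, PHGDH at 1336, PYCR1 at 706 and SLC7A11 at 418. For ASNS, 49.3% of the exon bases lie in exons of another gene on the same strand in GENCODE 44, and whether the authors' counting left out reads in such overlaps was not tested. CBS, at a mean normalized count of 12.5, has a near-identical copy, CBSL, with a row of its own at 0.144, and reads that map to both copies may have been counted for neither, which was not tested. CTH, the other enzyme of transsulfuration in the list, was at 136 and had no exon overlap with another gene.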
